A study of Mus musculus with 10 samples.

Results

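The leukocyte beta-2 integrins are heterodimers of 1 alpha chain and the common beta chain CD18, and the 6 genes described here are the 4 alpha chains Itgax (CD11c), Itgam (CD11b), Itgal (CD11a) and Itgad (CD11d), the beta chain Itgb2 (CD18), and the beta-like gene Itgb2l. They were taken by name from the 49315 genes of the count tables, and all 6 were found. An alpha chain reaches the surface only when paired with CD18. The pairs bind fragments of complement C3, fibrinogen and ICAMs, and they serve adhesion, migration and phagocytosis in myeloid cells. CD11b with CD18 (complement receptor 3) is the receptor through which microglia take up complement-tagged synapses, CD11a with CD18 is LFA-1, the receptor of ICAM-1 on circulating leukocytes, and CD11c with CD18 is complement receptor 4. Itgb2l encodes pactolus, a CD18-like protein known from mouse neutrophils.

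The study sorted microglia from brains of wild-type C57BL/6 mice by surface CD11c, the protein encoded by Itgax, and sequenced RNA of CD11c+ and CD11c- cells at 2 ages. There were 2 libraries of 9-mo (9-month) CD11c+ cells, 2 of 9-mo CD11c- cells, 3 of P5 (postnatal day 5) CD11c+ cells and 3 of P5 CD11c- cells, 10 in all. The labels name no other surface marker of the gate and do not give the origin of replicates (separate animals or not), and the spread behind each p-value is that of libraries, which may be technical. The labels name amplification with the SMART-Seq v4 kit for the 9-mo libraries only, so age and library preparation cannot be told apart, and levels at the 2 ages are set side by side without a test.

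Libraries held between 2619610 and 25483573 counts. P5 CD11c+ replicate 2 was the smallest and stood apart. In it 23033 genes reached 1 CPM (a count scaled to a library total of 1000000), against 12762 to 14735 in the other 9 libraries, and its correlation with the other P5 libraries across genes was 0.80 to 0.84, against 0.97 or more among those 5. The P5 tests of the members are therefore given with and without it. So are the P5 counts of the lists of ligands, activation genes, signalling genes and other integrin chains. Mitochondrial genes held 2.39%, 0.791% and 2.80% of counts in P5 CD11c+ libraries, against 7.19%, 20.8% and 28.1% in P5 CD11c- libraries, and their part in the P5 results was not tested. The homeostatic microglia marker Tmem119 stood at 4202 and 3361 CPM in 9-mo CD11c+ libraries, 998 and 635 CPM in 9-mo CD11c- libraries, 95.1, 27.1 and 159 CPM in P5 CD11c+ libraries and 530, 249.7 and 277 CPM in P5 CD11c- libraries. It is 1 of 20 such markers, whose P5 sums overlapped, unlike Tmem119. They were 20683.5, 14648 and 20966 CPM in P5 CD11c+ libraries and 32625, 20289 and 18706 CPM in P5 CD11c- libraries. At P5 none of the 20 was called, and without CD11c+ replicate 2, 5 were lower and 0 higher in CD11c+ cells. The 9-mo CD11c- libraries also held 139555 and 189336 CPM of 20 neutrophil markers, 14.0% and 18.9% of their counts, against 3134 and 2187 CPM in 9-mo CD11c+ libraries. All 20 of those markers had counts in all 4 of these libraries. The 9 eosinophil markers summed to 63.3 and 58.8 CPM in 9-mo CD11c+ libraries, against 1504 and 1584 CPM in 9-mo CD11c- libraries. In the other libraries they reached at most 105 CPM. The 20 markers of T, B and NK cells summed to 54.8 to 174 CPM over all 10 libraries. Those of 15 dendritic cell genes summed to 2140 and 2301 CPM in 9-mo CD11c+ libraries and to 705 and 664 CPM in 9-mo CD11c- libraries, and at P5 to 734, 1987 and 847 CPM in CD11c+ libraries and 1010, 612 and 595 CPM in CD11c- libraries.

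Itgax, Itgam, Itgal and Itgad lie on chromosome 7 and Itgb2 and Itgb2l on chromosomes 10 and 16. In the deposited tables, whose coordinates are those of GENCODE M21 (build GRCm38) for all 6 genes, Itgam (ENSMUSG00000030786) spans chr7:128062640-128118491, Itgax (ENSMUSG00000030789) begins 11056 bases further on and spans chr7:128129547-128150657, and Itgad (ENSMUSG00000070369) follows after 3719 bases at chr7:128154376-128223816. Itgal (ENSMUSG00000030830) lies apart at chr7:127296260-127335138. These 4 are on the plus strand. Itgb2 (ENSMUSG00000000290) spans chr10:77530252-77565708 on the plus strand and Itgb2l (ENSMUSG00000000157) spans chr16:96422288-96443619 on the minus strand. Itgam shares 3450 of its 5024 exonic bases, 68.7%, with the overlapping same-strand gene Gm49368, which itself held 11 to 61 counts in a library. How reads in shared exons were counted is not given in the sources used here, and if they were left out, the level of Itgam per length is too low. Its contrasts within an age use the same exons in every library.

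RefSeq (build GRCm38.p6) gave the 250 bases before the start of 3 of the 6 genes, Itgax, Itgam and Itgb2l. All 3 are shown, and they were not chosen by their levels. Capitals mark matches to motifs of myeloid transcription factor families.
Itgax, chr7:128129300-128129549, plus strand: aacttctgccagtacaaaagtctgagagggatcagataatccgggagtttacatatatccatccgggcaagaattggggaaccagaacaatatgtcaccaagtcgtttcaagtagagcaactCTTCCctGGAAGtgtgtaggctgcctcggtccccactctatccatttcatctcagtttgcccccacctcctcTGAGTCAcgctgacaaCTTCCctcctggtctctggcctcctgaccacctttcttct
Itgam, chr7:128062390-128062639, plus strand: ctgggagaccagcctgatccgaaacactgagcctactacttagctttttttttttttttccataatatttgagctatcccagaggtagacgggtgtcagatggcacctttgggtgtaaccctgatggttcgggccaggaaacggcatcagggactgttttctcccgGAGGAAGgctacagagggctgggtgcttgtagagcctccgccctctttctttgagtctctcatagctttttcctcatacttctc
Itgb2l, chr16:96443615-96443864, minus strand: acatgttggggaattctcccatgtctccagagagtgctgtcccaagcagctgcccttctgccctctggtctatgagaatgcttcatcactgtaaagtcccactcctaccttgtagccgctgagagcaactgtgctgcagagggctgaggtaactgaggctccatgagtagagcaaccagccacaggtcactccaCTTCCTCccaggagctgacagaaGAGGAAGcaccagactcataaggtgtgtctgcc
Searched on both strands were the PU.1 core GAGGAAG, the ETS core GGAAG (which lies within the PU.1 core), the RUNX core TGTGGT and the AP-1 site TGAGTCA. Of 32817 RefSeq promoter windows of the same length, 10.6% held the PU.1 core, 64.1% the ETS core, 14.0% the RUNX core and 4.46% the AP-1 site. Itgb2l held the PU.1 core 33 to 27 bases before its start and, on the opposite strand, 56 to 50 bases before it. Itgam held 1 PU.1 core, 84 to 78 bases before its start. Itgax held 3 ETS cores, none of them within a PU.1 core, and 1 AP-1 site 56 to 50 bases before its start. These are matches of letters, and binding was not measured.

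Itgax, the alpha chain whose protein was used for the sort, was higher in CD11c+ cells at 9 months. It stood at 28.0 and 20.7 CPM in 9-mo CD11c+ libraries, against 5.80 and 3.21 CPM in 9-mo CD11c- libraries. Both CD11c+ libraries were above both CD11c- libraries. The fitted log2 fold change was 2.08 ± 0.33 (SE), or 4.22-fold (edgeR quasi-likelihood test, Benjamini-Hochberg adjusted over all genes, adjusted p = 0.00397). Because cells were sorted on its protein, this contrast is a check of the sort at the RNA level, not a finding. The 20 homeostatic microglia markers summed to 89849 and 83011 CPM in the 9-mo CD11c+ libraries and to 28518 and 28329 CPM in the 9-mo CD11c- libraries, and all 20 rose in CD11c+ cells. In such bulk samples fewer cells of a type and less RNA per cell cannot be told apart. When libraries were scaled to those 20 genes, the median gene moved to -1.20 on the log2 scale and the value of Itgax to 0.82, with an adjusted p of 0.0801, so that it lay 2.02 above that median. Per 1000 CPM of the markers, Itgax stood at 0.311 and 0.250 CPM in CD11c+ libraries and at 0.203 and 0.113 CPM in CD11c- libraries. Of 16 markers of border-associated macrophages, 15 rose in 9-mo CD11c+ cells, and their sum was 2251 and 2123 CPM, against 659 and 560.2 CPM in 9-mo CD11c- libraries. Of 15 dendritic cell markers, 9 rose and 1 fell in 9-mo CD11c+ cells, with the sums given above. Among all genes tested, 14.8% rose and 18.2% fell. Of the 15 dendritic cell markers, Siglech is also a homeostatic marker and Clec10a a border-associated one. The part of these macrophages and dendritic cells in the level of Itgax was not tested.

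At P5 Itgax was more abundant than at 9 months in CD11c+ and in CD11c- libraries, and its 2 groups overlapped. It stood at 250.2, 49.2 and 144.8 CPM in P5 CD11c+ libraries, against 33.1, 61.9 and 29.3 CPM in P5 CD11c- libraries. The CD11c+ library below the highest CD11c- library was replicate 2, the one that stood apart. The means were 148 ± 101 CPM in CD11c+ libraries and 41.5 ± 17.8 CPM in CD11c- libraries (SD, n = 3 each). The log2 fold change was 1.63 ± 0.61 and did not pass the test (edgeR, adjusted p = 0.622). Without replicate 2 it was 2.06 ± 0.38, with an adjusted p of 0.0222. Every P5 library, CD11c- ones included, held more Itgax than every 9-mo library. The 16 markers of border-associated macrophages summed to 18382, 14256 and 15817 CPM in P5 CD11c+ libraries, against 1680, 1480 and 885 CPM in P5 CD11c- libraries. Unlike Itgax, these sums did not overlap. Per 1000 CPM of the markers, Itgax stood at 13.6, 3.45 and 9.16 CPM in P5 CD11c+ libraries. In P5 CD11c- libraries it stood at 19.7, 41.9 and 33.2 CPM. The part of these macrophages in the P5 difference of Itgax was not tested. Among the 16 markers Mrc1, the macrophage mannose receptor, stood at 4080, 1904 and 3889 CPM in P5 CD11c+ libraries, against 369, 307 and 189.5 CPM in P5 CD11c- libraries.

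**Figure D1:**
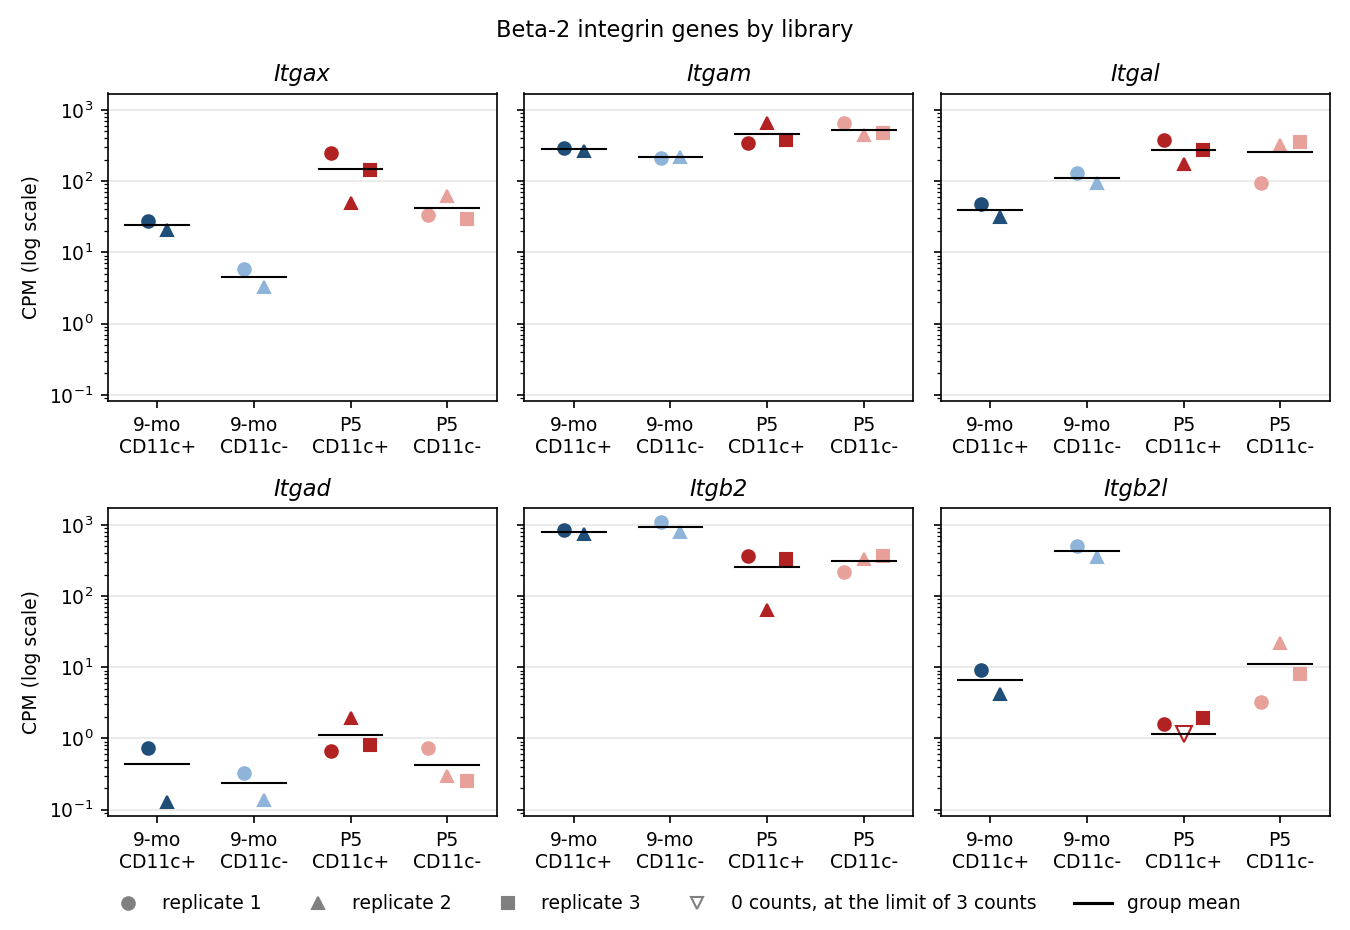
Each point is 1 library and each black line a group mean, in CPM on a log axis, for the 6 genes in 9-mo CD11c+, 9-mo CD11c-, P5 CD11c+ and P5 CD11c- cells. Itgax separates the CD11c+ from the CD11c- libraries at 9 months, Itgb2l does so in the other direction, and the open triangle is the P5 CD11c+ library with 0 counts of Itgb2l, drawn at its limit of 1.15 CPM.

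Itgam, the alpha chain of complement receptor 3, did not pass the test between CD11c+ and CD11c- cells at either age. At 9 months it stood at 292 and 266 CPM in CD11c+ libraries, against 214 and 222 CPM in CD11c- libraries. These CPM do not overlap, but the fit, which scales by TMM so that a few very abundant genes do not set the scale, gave a log2 fold change of -0.02 ± 0.16 (edgeR, adjusted p = 0.932). Scaled to the homeostatic markers, the log2 fold change was -1.25, with an adjusted p of 0.000656, which after subtraction of the median gene on that scale is -0.05. At P5 Itgam stood at 344, 663 and 383 CPM in CD11c+ libraries, against 650.1, 444 and 473 CPM in CD11c- libraries, with overlap. The log2 fold change was -0.34 ± 0.35 (edgeR, adjusted p = 0.826), and without CD11c+ replicate 2 it was -0.68 ± 0.18, with an adjusted p of 0.0558.

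Itgal, the alpha chain of LFA-1, fell in 9-mo CD11c+ cells. It stood at 47.4 and 31.8 CPM in 9-mo CD11c+ libraries, against 129.6 and 95.1 CPM in 9-mo CD11c- libraries, without overlap. The log2 fold change was -1.87 ± 0.24, a 3.65-fold lower level (edgeR, adjusted p = 0.00167). Neutrophil and monocyte markers were also lower in 9-mo CD11c+ libraries, though not in proportion to Itgal. The 13 matched monocyte markers summed to 766 and 696 CPM there, against 15642 and 17673 CPM in 9-mo CD11c- libraries. Per 1000 CPM of them, Itgal stood at 61.8 and 45.7 CPM in 9-mo CD11c+ libraries. In 9-mo CD11c- libraries it stood at 8.28 and 5.38 CPM. Over all 10 libraries this ratio ran from 5.38 to 481 CPM, and that to the neutrophil markers from 0.502 to 620 CPM. The part of neutrophils and monocytes in the difference was not tested. At P5 Itgal stood at 384, 174 and 272 CPM in CD11c+ libraries, against 94.7, 318 and 355 CPM in CD11c- libraries. The lowest of the 6 libraries was a CD11c- one, and the groups overlapped over most of their range. The log2 fold change was -0.16 ± 0.60 (edgeR, adjusted p = 0.962), and it was 0.11 ± 0.57 without CD11c+ replicate 2.

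Itgad, the alpha chain CD11d, was near the limit of detection throughout. Its counts were 19 and 3 in 9-mo CD11c+ libraries and 8 and 3 in 9-mo CD11c- libraries. They were 10, 5 and 15 in P5 CD11c+ libraries and 11, 4 and 3 in P5 CD11c- libraries. In CPM these are 0.128 to 1.91, and the exact Poisson 95% interval of the highest value, in P5 CD11c+ replicate 2, ran from 0.620 to 4.45 CPM. Such intervals cover counting error only. Itgad did not pass the filter on low counts at 9 months. At P5 its log2 fold change was 1.13 ± 0.75 (edgeR, adjusted p = 0.800), and without CD11c+ replicate 2 it was 0.62 ± 0.63, with an adjusted p of 0.578. Of 4555 windows of 50 bases in its transcripts, 384 also occur in Itgax, the more abundant gene. A read lying wholly within such a window matches both genes, and how such reads were counted is not given in the sources used here. No other pair among the 6 shares a window of that length.

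Itgb2, the beta chain CD18 on which every alpha chain depends, was the most abundant of the 6 per length at 9 months. It stood at 849 and 744 CPM in 9-mo CD11c+ libraries, against 1083 and 788 CPM in 9-mo CD11c- libraries, with overlap. The fit gave a log2 fold change of -0.60 ± 0.16, a 1.51-fold lower level (edgeR, adjusted p = 0.0301). That call rested on single libraries: without 9-mo CD11c+ replicate 2 the log2 fold change was -0.46, with an adjusted p of 0.155, and without 9-mo CD11c- replicate 1 it was -0.45, with an adjusted p of 0.0745. At P5 Itgb2 stood at 368, 63.4 and 328 CPM in CD11c+ libraries, against 219.6, 336 and 365 CPM in CD11c- libraries. The value of 63.4 CPM is again replicate 2. CD11c+ cells had a log2 fold change of -0.52 ± 0.64 (edgeR, adjusted p = 0.854), and without that library it was -0.03 ± 0.31.

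Itgb2l, the CD18-like gene, was the member with the greatest difference. It stood at 9.18 and 4.27 CPM in 9-mo CD11c+ libraries, against 500.5 and 354 CPM in 9-mo CD11c- libraries. The lower CD11c- library was far above the higher CD11c+ library. The log2 fold change was -6.34 ± 0.40, an 81.2-fold lower level (edgeR, adjusted p = 8.01e-05), and it kept its sign and passed the test under all 11 alternative settings. At P5 it stood at 1.58, 0 and 1.92 CPM in CD11c+ libraries, against 3.23, 21.9 and 8.07 CPM in CD11c- libraries. All 3 CD11c+ libraries were below all 3 CD11c- libraries, and the 0 of 2619610 counts in CD11c+ replicate 2 allows up to 1.15 CPM. With a log2 fold change of -3.36 ± 1.16, Itgb2l did not pass (edgeR, adjusted p = 0.541). It came to -2.87 ± 0.84 without that library, with an adjusted p of 0.0750.

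Itgb2l moved with the neutrophil markers at both ages. These 20 markers summed to 619, 442 and 557 CPM in P5 CD11c+ libraries, against 1208, 3998 and 2244 CPM in P5 CD11c- libraries, next to the 9-mo sums above. Over the 9 libraries with counts of Itgb2l, its level per 1000 CPM of the marker sum ran from 1.87 to 5.48 CPM, while its own level ran from 1.58 to 500.5 CPM. Between the 9-mo CD11c- libraries the 2 went opposite ways. Replicate 1 held 500.5 CPM of Itgb2l and a sum of 139555 CPM, and replicate 2 held 354 and 189336 CPM. Per 1000 CPM these are 3.59 and 1.87 CPM. Elane, the elastase of neutrophil precursors, stood at 3.81 and 0.98 CPM in 9-mo CD11c+ libraries, against 689 and 589 CPM in 9-mo CD11c- libraries, and it had 0 counts in all 3 P5 CD11c+ libraries. S100a8, an abundant neutrophil protein gene, stood at 419 and 301 CPM in 9-mo CD11c+ libraries, against 26593 and 48020 CPM in 9-mo CD11c- libraries. The part of neutrophils in the difference of Itgb2l was not tested.

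**Figure D2:**
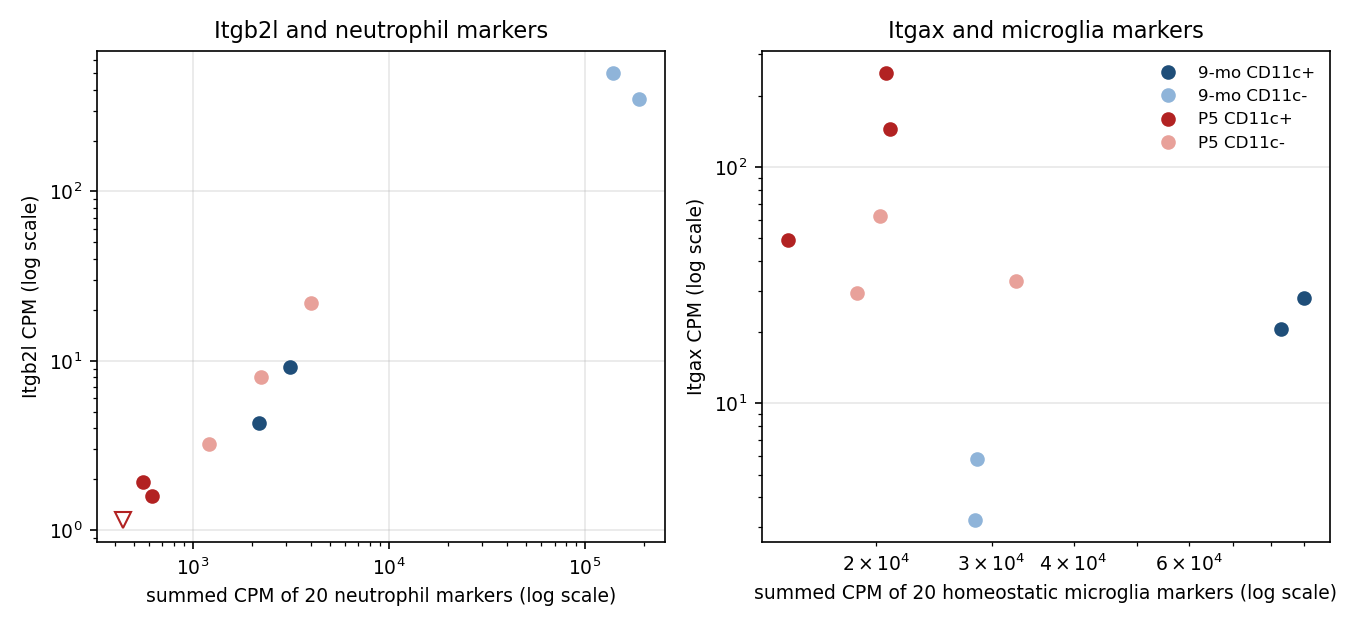
The left panel sets Itgb2l in CPM against the summed CPM of 20 neutrophil markers, and the right panel sets Itgax in CPM against the summed CPM of 20 homeostatic microglia markers, with 1 point per library and log axes throughout. In the left panel the 9-mo CD11c- libraries lie at the top right with 500.5 and 354 CPM, and the open triangle is the library with 0 counts. In the right panel the 9-mo CD11c+ libraries have the highest marker sums and lower Itgax than every P5 library. The nearest values, 28.0 CPM at 9 months and 29.3 CPM at P5, lie within counting error.

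Of the 5 members tested at 9 months, 1 was higher in CD11c+ cells (Itgax) and 3 were lower (Itgal, Itgb2 and Itgb2l). Among all 15740 genes tested, 14.8% were called higher and 18.2% lower. The members' median log2 fold change was -0.60, against 0.02 over all genes tested. In 1 fit of all 10 libraries, whose spread includes P5 CD11c+ replicate 2, Itgb2l passed (-6.22, adjusted p = 0.0102) and Itgax, Itgal and Itgb2 did not (adjusted p = 0.118, 0.186 and 0.789). Of the 6 members at 9 months, 2 had both CD11c+ libraries above both CD11c- libraries in CPM (Itgax and Itgam), as did 49.4% of all genes, and 2 had both below (Itgal and Itgb2l), as did 23.7%. At P5 none of the 6 members passed the test, where 0.299% of 15410 genes were called higher and 0% lower; 2 members (Itgax and Itgb2l) had an unadjusted p under 0.05, and by DESeq2 1 member passed (Itgb2l, log2 fold change -3.37, adjusted p = 0.0425). The members' median was -0.25, against 0.06 over all genes. In CPM, Itgb2l was the 1 member whose P5 CD11c+ libraries were all below the CD11c- libraries, as were 3.64% of genes, and no member had them all above, as did 11.7%. Without P5 CD11c+ replicate 2, 1 of the 6 members was called higher (Itgax) and none lower, where 5.06% of genes were called higher and 4.42% lower.

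**Figure D3:**
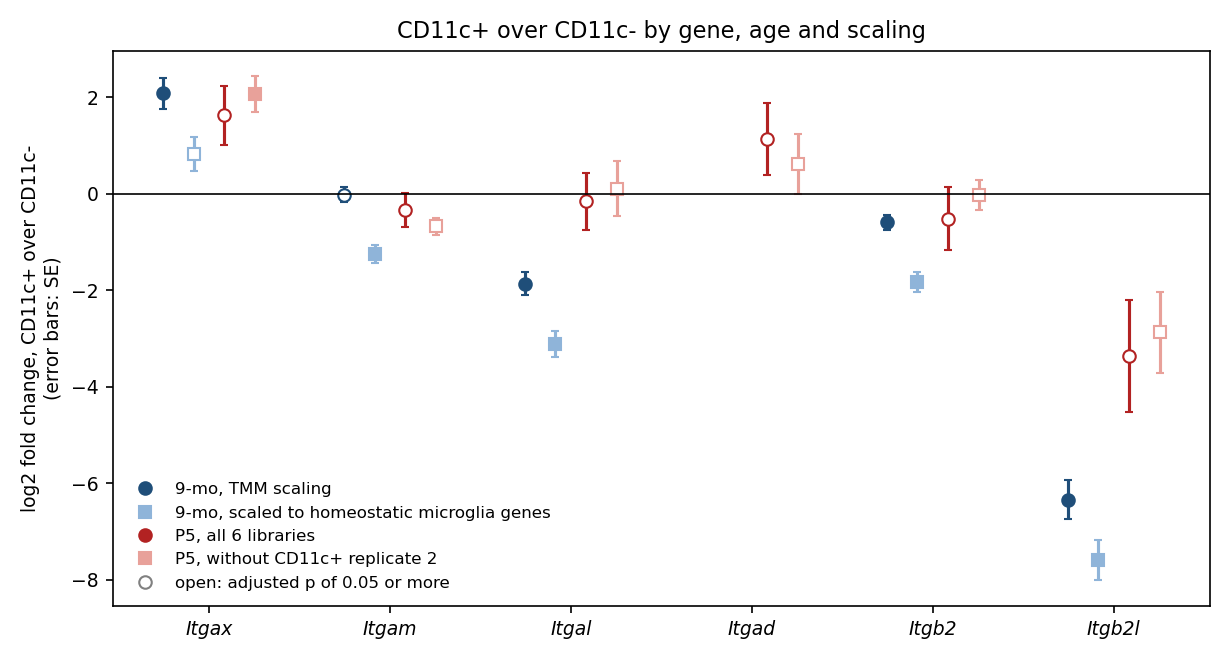
Points are log2 fold changes of CD11c+ over CD11c- cells with SE bars, filled where the adjusted p is below 0.05, at 9 months under both scalings and at P5 with and without CD11c+ replicate 2. Scaling to homeostatic microglia genes moves every 9-mo value down by a similar amount, and Itgad has no value at 9 months because it did not pass the filter.

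The test of whether the CD11c difference changed with age (9-mo minus P5) called none of the 6 members, where 1.86% of 19555 genes were called in either direction. Of the 6, 1 had an unadjusted p under 0.05 (Itgb2l). Its log2 difference was -3.04 ± 1.19 (edgeR, adjusted p = 0.245). Without P5 CD11c+ replicate 2 it was -3.37 ± 0.99, with an adjusted p of 0.0388. That of Itgal was -1.56 ± 0.86, with an adjusted p of 0.419, and that of Itgax was 0.59 ± 0.90, with an adjusted p of 0.795. Such p-values do not show that the CD11c difference was alike at both ages. As age and library preparation cannot be told apart, a change in this test cannot be assigned to age alone.

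The order of the 6 genes differed between groups when their levels were compared per length, in RPKM (CPM divided by exon length in kilobases). In 9-mo CD11c+ libraries Itgb2 led at 261 ± 24.3 RPKM, followed by Itgam at 55.6 ± 3.64 RPKM, Itgal at 6.03 ± 1.68 RPKM, Itgax at 5.07 ± 1.07 RPKM and Itgb2l at 2.29 ± 1.18 RPKM (SD, n = 2). The ranges of Itgal and Itgax overlapped there and those of the others did not. In 9-mo CD11c- libraries Itgb2l came second, at 145.5 ± 35.3 RPKM after 306 ± 68.2 RPKM of Itgb2, and above Itgam at 43.3 ± 1.10 RPKM (SD, n = 2). The place above Itgam rested on the length taken for Itgam: by its unshared exons alone, a choice made after the overlap was seen, Itgam stood at 135.8 and 140.8 RPKM in these libraries, between the 170.5 and 120.6 RPKM of Itgb2l. Itgal followed at 17.1 ± 3.72 RPKM and Itgax at 0.938 ± 0.381 RPKM. In P5 CD11c+ libraries Itgam led at 92.3 ± 34.7 RPKM, and its range overlapped that of Itgb2, which overlapped that of Itgal in turn, as Itgal did that of Itgax. Without replicate 2 the order of the first 2 turned, with Itgb2 at 120.5 and 107.4 RPKM and Itgam at 68.6 and 76.1 RPKM. In P5 CD11c- libraries Itgam and Itgb2 stood at 104.0 ± 22.2 and 100.5 ± 25.2 RPKM (SD, n = 3), with overlapping ranges. By its unshared exons Itgam was above Itgb2 in every P5 library and below it in every 9-mo library.

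Among the alpha chains, Itgam held the largest share of summed RPKM in every library, from 38.3% to 85.8%. Itgax held 8.17% and 6.94% in 9-mo CD11c+ libraries, against 1.90% and 1.13% in 9-mo CD11c- libraries, without overlap. It held 29.1%, 6.06% and 20.4% in P5 CD11c+ libraries, against 4.57%, 8.61% and 3.95% in P5 CD11c- libraries, with overlap through replicate 2. Itgal held 10.1% and 7.79% in 9-mo CD11c+ libraries, against 31.0% and 24.4% in 9-mo CD11c- libraries. Itgad held at most 0.250% in a library. With the length of Itgam taken as its unshared exons, the mean share of Itgax became 2.68% in 9-mo CD11c+, 0.599% in 9-mo CD11c-, 9.21% in P5 CD11c+ and 2.34% in P5 CD11c- libraries.

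**Figure D4:**
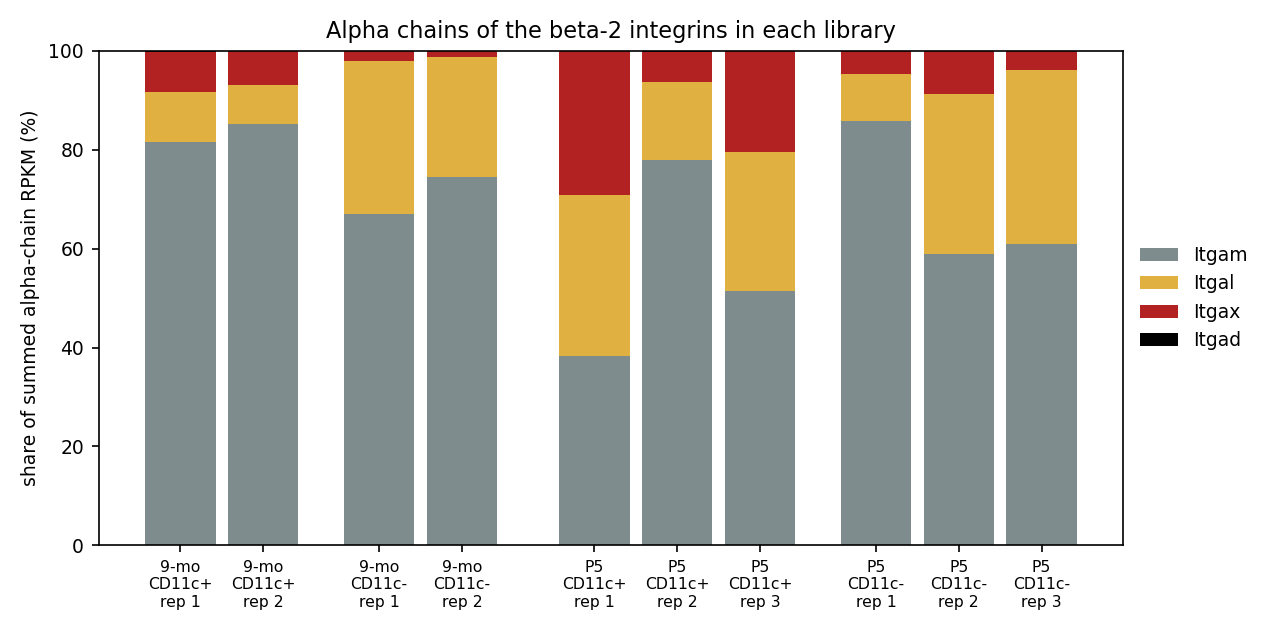
Each bar is 1 library and divides its summed alpha-chain RPKM into the shares of Itgam, Itgal, Itgax and Itgad in percent. The share of Itgad is too small to see. Itgax takes 8.17% and 6.94% in 9-mo CD11c+ bars and 1.90% and 1.13% in 9-mo CD11c- bars, and its share in P5 CD11c+ replicate 2 is 6.06%, below the 29.1% and 20.4% of the other P5 CD11c+ bars.

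Alpha and beta chains also stood in different proportion at the 2 ages. The summed alpha-chain RPKM divided by the RPKM of Itgb2 was 0.256 and 0.255 in 9-mo CD11c+ libraries and 0.179 and 0.230 in 9-mo CD11c- libraries. It was 1.49, 8.15 and 1.38 in P5 CD11c+ libraries and 2.10, 1.36 and 1.29 in P5 CD11c- libraries. Every P5 library was thus above every 9-mo library, and replicate 2 of the P5 CD11c+ cells was far above the rest. By the unshared exons of Itgam the ratio was 0.715 and 0.732 in 9-mo CD11c+ libraries, 0.442 and 0.604 in 9-mo CD11c- libraries and at least 2.73 in the P5 libraries. As the ages differ in library preparation, this was not tested.

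Of 9817 other genes, those whose log2 CPM followed each member most closely over the 10 libraries, by the root mean square difference after centring, differed by member. For Itgb2l they were Fcnb (0.51), a granule lectin of neutrophils, Lcn2 (0.73), Cd177 (0.78), Chil1 (0.83) and Ltf (0.86), where the SD of Itgb2l itself was 3.75. Fcnb, Lcn2 and Ltf are also among the 20 neutrophil markers. For Itgax they were Als2cl (0.51), Stab1 (0.52), a scavenger receptor of macrophages that is also among the border-associated markers, Prune2 (0.53), Ttyh2 (0.61) and Rab11fip5 (0.64), with an SD of 1.67. Stab1 stood at 453 and 484 CPM in 9-mo CD11c+ libraries, 117 and 81.8 CPM in 9-mo CD11c- libraries, 6805, 2211 and 4642 CPM in P5 CD11c+ libraries and 1066, 836 and 440.2 CPM in P5 CD11c- libraries. For Itgal they were Nxpe4 (0.32), Spn (0.32), the leukocyte sialophorin CD43 and 1 of the monocyte markers, Rara (0.33), Kcnab2 (0.37) and Crybg1 (0.39), with an SD of 1.17. Without P5 CD11c+ replicate 2 the nearest genes were Stab1 (0.44) for Itgax, Spn (0.27) for Itgal and Chil1 (0.29) for Itgb2l. For Itgb2l the next were then Il1f9 (0.32), Ly6c2 (0.38), 1 of the monocyte markers, 9830107B12Rik (0.39) and Anxa1 (0.40). Fcnb, Lcn2, Cd177 and Ltf were no longer among them, so that part of the list rested on the library left out. Itgam itself varied little, with an SD of 0.39, and its nearest gene was Wdr37 (0.15). For Itgb2 (SD 1.48) the nearest was Myd88 (0.27), or Cnr2 (0.17) without that library, and for Itgad (SD 0.76) it was Polg2 (0.43).

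The genes beside the members were also looked up. Of 31 genes within 50 kilobases of a member, 19 were tested at 9 months and 6 were higher and 2 lower in CD11c+ cells, where 14.8% and 18.2% of all genes were. At P5 15 were tested and none was called. The 6 higher ones were Zfp747, 9130019O22Rik, 9130023H24Rik, Armc5, BC017158 and Pttg1ip, with log2 fold changes of 0.88 (Pttg1ip) to 1.88 (9130019O22Rik). The 2 lower ones were Sephs2, a selenophosphate synthetase gene, at -2.27 ± 0.18 (edgeR, adjusted p = 0.000203), and Zfp771 at -2.58 ± 0.46. Along Itgam, Itgax and Itgad, which lie side by side, the 9-mo log2 fold changes were -0.02, 2.08 and, for Itgad, not tested.

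The known ligands of these receptors were next compared, as a list of 20 genes of which 8 were tested at 9 months, and 5 of them rose and 2 fell. Among all 15740 genes tested, 14.8% rose and 18.2% fell. The median log2 fold change of the ligands was 1.24, against 0.02 over all genes. Icam1, the ligand of LFA-1, stood at 530 and 483 CPM in 9-mo CD11c+ libraries, against 176 and 122 CPM in 9-mo CD11c- libraries, a log2 fold change of 1.40 ± 0.17 (edgeR, adjusted p = 0.00140). C3, the complement protein whose fragment iC3b binds CD11b and CD11c, fell, with 17.6 and 17.7 CPM in 9-mo CD11c+ libraries against 473 and 392 CPM in 9-mo CD11c- libraries (-4.99 ± 0.16, adjusted p = 2.63e-05). F11r, a junctional adhesion molecule bound by LFA-1, and Vcam1 rose by 1.44 ± 0.14 and 1.59 ± 0.17 on the log2 scale, with adjusted p-values of 0.000508 and 0.000745. With libraries scaled to the homeostatic markers, 0.686% of all genes were called higher and 55.2% lower. On that scaling 1 ligand rose (Ccn1) and 2 fell, and Icam1, F11r and Vcam1 stood at 0.16, 0.21 and 0.36, near 0 but above the median gene of -1.20. Ccn1, a matrix protein that binds CD11b, was the 1 gene of the pathway lists that rose at both ages with all libraries in the tests. It stood at 88.1 and 74.9 CPM in 9-mo CD11c+ libraries, against 4.93 and 6.15 CPM in 9-mo CD11c- libraries, and at 61.5, 38.2 and 122 CPM in P5 CD11c+ libraries, against 3.37, 3.10 and 2.61 CPM in P5 CD11c- libraries. Its log2 fold change was 3.49 ± 0.25 at 9 months (edgeR, adjusted p = 0.000133) and 4.43 ± 0.49 at P5 (adjusted p = 0.0302). At P5 1 of the 10 tested ligands passed (Ccn1), and no gene at all passed when any 1 library other than CD11c+ replicate 2 was left out. Without that replicate 1 ligand rose (Ccn1) and 1 fell (F11r), with a median of -0.53 against -0.00 over all genes. Vcam1 (2.96 ± 0.87, adjusted p = 0.387), Ager (-0.87 ± 0.29, adjusted p = 0.525) and F11r (-1.71 ± 0.58, adjusted p = 0.532) came next and did not pass.

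Proteins that switch integrins on from inside the cell or bind their tails were 20 genes, of which 19 were tested. At 9 months 2 rose and 8 fell, where 14.8% of all genes rose and 18.2% fell. The median of the list was -0.44 on the log2 scale, against 0.02 over all genes. Rasgrp2 (CalDAG-GEFI), the exchange factor of Rap1, fell, with 6.28 and 5.85 CPM in 9-mo CD11c+ libraries against 104.8 and 88.2 CPM in 9-mo CD11c- libraries (-4.36 ± 0.19, edgeR, adjusted p = 2.96e-05). The tail-binding filamin gene Flna fell by 2.56 on the log2 scale, with an adjusted p of 0.000133, and vinculin (Vcl), which links talin to actin, by 3.10, with an adjusted p of 0.000169. Itgb1bp1, which binds beta-1 tails, fell by 1.15, with an adjusted p of 0.00421. Of the best known tail-binding activators, named here for their role after their values were seen, talin (Tln1) fell by 0.54 (adjusted p = 0.0335) and kindlin-3 (Fermt3) rose by 0.60 ± 0.16 (adjusted p = 0.0319). Tln1 did not pass without 9-mo CD11c+ replicate 1 or 2 or CD11c- replicate 1, where its log2 fold change was -0.41 to -0.51, and Fermt3 did not without CD11c+ replicate 1 (0.49) or CD11c- replicate 2 (0.56) and fell by 0.65 when libraries were scaled to the homeostatic markers. On that scaling none of the 19 rose and 15 fell, where 55.2% of all genes fell, and the median was -1.67 against -1.20 over all genes. At P5 none of the 19 passed, and their median was -0.29 against 0.06 over all genes. With P5 CD11c+ replicate 2 left out, 1 rose (Cyth1) and none fell, with a median of -0.06 against -0.00. The smallest p-values there were those of Apbb1ip (-0.87 ± 0.36, adjusted p = 0.711), the Rap1 effector RIAM, Skap1, Rassf5 and Rasgrp2.

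Of 20 genes that act downstream of bound beta-2 integrins, all were tested. At 9 months 4 rose and 6 fell, where 14.8% of all genes rose and 18.2% fell. The median of the list was -0.05, against 0.02 over all genes. Rac2, a GTPase of haematopoietic cells, stood at 306 and 297 CPM in 9-mo CD11c+ libraries, against 1975 and 1976 CPM in 9-mo CD11c- libraries (-3.09 ± 0.15, edgeR, adjusted p = 3.93e-05). The Src-family kinase gene Fgr fell by 2.95 and the exchange factor gene Vav3 by 2.78 on the log2 scale, with adjusted p-values of 0.000136 and 0.00163, while Vav1 rose by 0.89 ± 0.15 (adjusted p = 0.00457) but stood at -0.34 when libraries were scaled to the homeostatic markers. On that scaling none rose and 16 fell, with a median of -1.27, beside the 55.2% and -1.20 of all genes. At P5 none of the 20 passed, with a median of -0.37. When P5 CD11c+ replicate 2 was left out, 1 rose (Pik3cg, which also rose at 9 months) and none fell, with a median of -0.01. The smallest p-values there were those of Ptk2 (2.76 ± 0.90, adjusted p = 0.487), the focal adhesion kinase gene, Vav3, Vav1 and Lcp2.

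Among 21 other integrin chains, 18 were tested at 9 months, and 3 rose and 4 fell, where 14.8% of all genes rose and 18.2% fell. The median of the list was -0.09, against 0.02 over all genes. Itgb5, the beta chain that pairs with the alpha-v chain, stood at 193 and 171 CPM in 9-mo CD11c+ libraries, against 53.1 and 47.5 CPM in 9-mo CD11c- libraries (1.48 ± 0.16, edgeR, adjusted p = 0.000780). Itgb7, a beta chain of lymphocytes and other leukocytes, stood at 57.0 and 56.0 CPM in 9-mo CD11c+ libraries, against 113 and 95.3 CPM in 9-mo CD11c- libraries (-1.25 ± 0.15, adjusted p = 0.00135). Itga2b, the alpha chain of platelets, and Itga1, a collagen receptor, fell by 3.61 and 3.75 on the log2 scale, with adjusted p-values of 0.00227 and 0.00116. With libraries scaled to the homeostatic markers none rose and 8 of 18 fell, with a median of -1.31, beside the same 55.2% and -1.20. At P5 none of the 16 tested passed, and the smallest p-values were those of Itga2b (-2.28 ± 0.90, adjusted p = 0.667), Itgae, Itgb4 and Itgb3. Leaving out P5 CD11c+ replicate 2, 1 fell (Itga2b) and none rose, and the median was -0.13 both with and without it. In the test of the change with age, 1 gene of the 4 lists passed (Vcl) with all 10 libraries. That count rested on P5 CD11c+ replicate 2. Without it 19.1% of all genes were called in either direction, and the calls were 3 higher and 2 lower of 10 ligands, 0 higher and 7 lower of 19 activation genes, 2 higher and 4 lower of 20 signalling genes, and 3 higher and 0 lower of 20 other integrin chains. With all libraries the genes next to it were Icam1 (2.18 ± 0.57, adjusted p = 0.0900), Vav3 (-3.77 ± 0.84, adjusted p = 0.0553) and Itgb5 (2.24 ± 0.86, adjusted p = 0.238). The neutrophil and monocyte marker sums of the 9-mo CD11c- libraries stand beside all 4 of these lists, and their part in them was not tested.

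**Figure D5:**
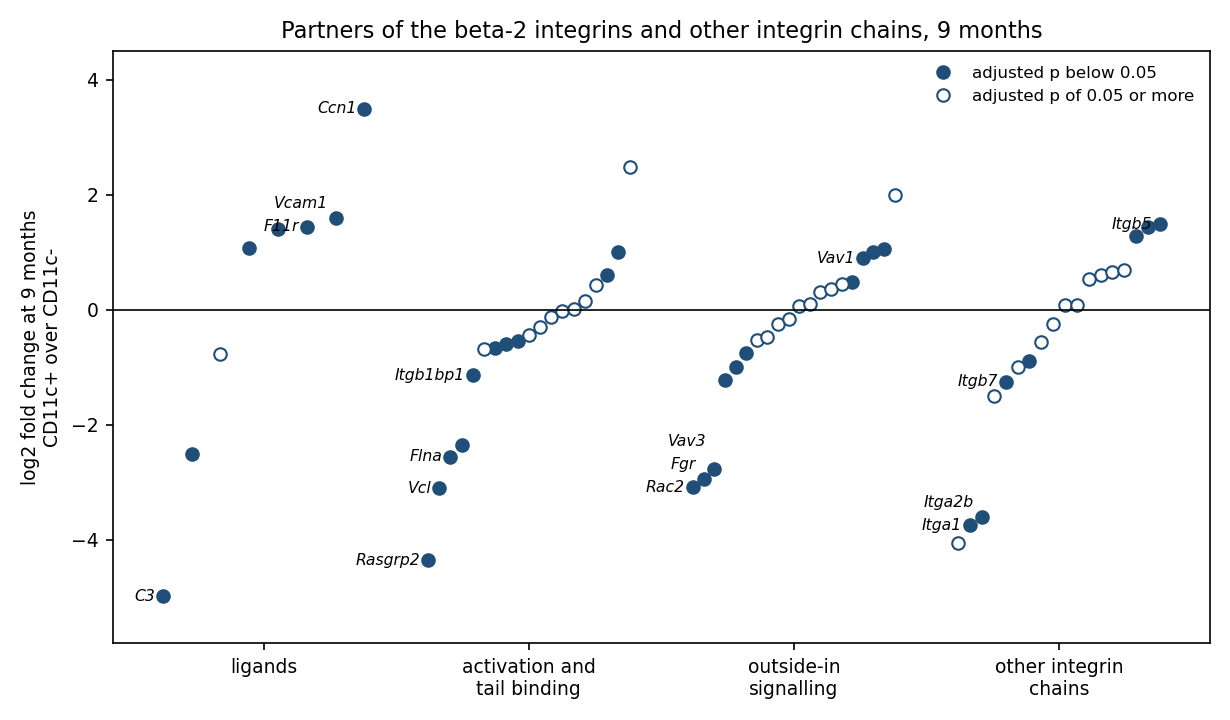
Each point is 1 tested gene of the 4 lists at 9 months, ordered by its log2 fold change of CD11c+ over CD11c- cells, filled where the adjusted p is below 0.05, and the 4 genes of each list with the smallest p are named. Ligands run from -4.99 (C3) to 3.49 (Ccn1), and the activation list holds 8 filled points below 0 and 2 above it.

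The scaling to homeostatic markers shifted all genes together at 9 months, by nearly the same amount on the log2 scale. Places relative to the median gene are therefore nearly fixed by the method, and their likeness under both scalings is no test of the members. As given above, on that scaling Itgax no longer passed and Itgam did. After subtraction of that median, Itgb2l stood at -6.36 on the TMM scale and -6.40 on the homeostatic scale, Itgal at -1.89 and -1.92, Itgb2 at -0.62 and -0.64, and Itgax at 2.05 and 2.02.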

How the data were processed

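RNA was measured by bulk RNA-seq in 10 libraries of sorted mouse microglia. The deposited values are raw read counts per gene, 1 table per library, with the exons, strand and summed exon length of each gene per the file headers. The submitters' processing notes name Trimmomatic 0.36, STAR 2.5.2b and Subread 1.5.2. The build and the handling of strand, multimapping and ambiguous reads are not given in the sources used here. In the tables, 91.4% of the gene IDs shared with GENCODE M21 had the same start and end, and 48970 of 49315 matched a symbol.

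CPM divide a count by the library's total, and RPKM also by the tables' exon length. CD11c+ was tested against CD11c- within each age, and the 9-mo minus P5 change of that difference over all libraries, with the edgeR 4.0.16 quasi-likelihood test in R 4.3.3 (filterByExpr with a minimum count of 10, TMM, Benjamini-Hochberg over all genes tested, threshold 0.05). SE is the log2 fold change divided by the root of F. The alternatives were DESeq2 1.42.0 and its size factors, limma 3.58.1 (voom), scaling to 20 homeostatic microglia genes, no filter, a replicate block, all 10 libraries in 1 fit, and leaving out each library. The procedure was tested on simulated counts. Among libraries of the same group, none repeated another.

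The members and gene lists were chosen with earlier results of these data known. Named are all 6 members and, from each partner list, the 4 genes with the smallest p, besides exceptions given where they occur. Likeness is the root mean square difference of centred log2 CPM (prior count 2) among genes with an average log2 CPM of at least 3. Intervals and the limit of 3 counts behind a 0 cover counting error only. Promoter windows come from RefSeq, build GRCm38.p6.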

Additional observations from a re-analysis of the deposited data

Results flagged for a closer look

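Vcl, the gene of vinculin, passed the test of whether the CD11c+ over CD11c- difference changed between the ages, with all 10 libraries. It was the 1 gene named among the members and the 4 partner lists that did so. As age and library preparation cannot be told apart, this change cannot be assigned to age alone. Without P5 CD11c+ replicate 2, Itgb2l and genes of all 4 lists passed as well. The log2 change (9-mo minus P5) was -3.40 ± 0.70 (edgeR, adjusted p = 0.0423). Vcl stood at 9.14 and 7.48 CPM in 9-mo CD11c+ libraries, against 65.6 and 45.7 CPM in 9-mo CD11c- libraries, and at 18.9, 7.25 and 11.1 CPM in P5 CD11c+ libraries, against 4.99, 9.14 and 9.42 CPM in P5 CD11c- libraries. The groups did not overlap at 9 months and did at P5. Without P5 CD11c+ replicate 2 the change was -3.71 ± 0.51, with an adjusted p of 0.00116. When any 1 of the other 9 libraries was left out, the change lay between -3.63 and -2.90 and did not pass, with adjusted p from 0.0682 to 0.460. With a replicate block it was -3.33, with an adjusted p of 0.166.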

How the results depend on the processing

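Of 229 recomputed values of the members, 196 kept their direction and their side of the threshold. In the main fits the median gene stood at 0.06 at P5, 0.02 at 9 months and -0.06 in the change with age. Scaling to homeostatic genes moved it to 0.56, -1.20 and -1.98. That scaling called 105 genes at P5, 8801 at 9 months (108 higher, 8693 lower, against 2333 and 2869) and 6075 in the change. It put P5 Itgam at 0.26 and Itgal at 0.21, 9-mo Itgax at 0.82 and Itgam at -1.25, Fermt3 at -0.65 and Vav1 at -0.34. In the change it put Itgax at -1.17, Itgam at -1.50, Itgb2 at -1.66, Itgal at -3.33 (adjusted p = 0.0237) and Itgb2l at -4.74 (adjusted p = 0.0201). With all 10 libraries in 1 fit, whose spread includes P5 CD11c+ replicate 2, 138 genes passed at P5 and 1158 at 9 months, and 9-mo Itgax (2.22), Itgal (-1.74) and Itgb2 (-0.47) did not pass, while Itgam stood at 0.093. With no filter, 693 genes passed in the change, with Itgb2l at -2.95 (adjusted p = 0.0391), and 9-mo Itgam stood at 0.038. DESeq2 called 554 genes at P5, with Itgb2l at -3.37, and 2375 in the change, with Itgb2 at -0.10. DESeq2 size factors gave 623 in the change and Itgb2 at -0.11, and limma-voom 75 at P5.

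Leaving out 1 library gave 0 to 1501 genes at P5, 4006 to 6087 at 9 months and 0 to 3496 in the change, against 46, 5202 and 364. The highest P5 and change counts are those without P5 CD11c+ replicate 2. The common biological coefficient of variation at P5 was 0.614 with that library and 0.243 without it. Where 1 library remained in a group, it is assumed to vary like the others. The ranges were 1.01 to 2.11 for P5 Itgax, -0.60 to 0.24 for P5 Itgal, -0.13 to 0.16 for 9-mo Itgam and -0.67 to -0.45 for 9-mo Itgb2. In the change they were -0.45 to 0.42 for Itgb2, -1.81 to 0.60 for Itgad and -3.72 to -2.52 for Itgb2l. Deviations from the group mean in libraries of the same replicate number had correlations of 0.46, 0.10 and -0.40 at P5. At 9 months both were 0.09, and with 2 libraries a group they are equal by construction and count as 1 value. Such values do not settle whether the numbers mark pairs. As the labels do not give the origin of replicates, the numbers are not taken as pairs in the main fits. The replicate block gave 0 genes at P5, 5436 at 9 months and 0 in the change, and it moved no member across the threshold. Among the partner genes it ended the calls of Vcl in the change (-3.33, adjusted p = 0.166) and of Ccn1 at P5 (4.26, adjusted p = 0.161).

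Taking Itgam at its unshared length lowered the Itgax share to 2.68% in 9-mo CD11c+, 0.599% in 9-mo CD11c- and 2.34% in P5 CD11c- libraries, from main means of 7.55%, 1.51% and 5.71%. The cause of the other changes was not tested. With 2 or 3 libraries a group, and Itgad at 3 to 19 counts, smaller differences could not be detected.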
